A study of Drosophila melanogaster with 9 samples.

Results

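The 10 genes described here encode the main enzymes of glycolysis in Drosophila, from hexokinase to pyruvate kinase: Hex-A, Pgi, Pfk, Ald1, Tpi, Gapdh1, Gapdh2, Pglym78, Eno and PyK. They were chosen by symbol and not by their values, and all 10 were found among the 13947 genes counted by nuclear RNA-seq. The data are 3 libraries, replicates 1, 2 and 3, from photoreceptors that expressed an shRNA against Set2 (shSet2), the histone methyltransferase that trimethylates H3K36. RNA-seq libraries of the shControl (mCherry) flies were not analysed here, so each value describes shSet2 photoreceptors and no effect of Set2 was measured. The ATAC-seq samples of the series were not used here.

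The libraries came from male flies aged 10 days, kept in a light:dark cycle and collected at zeitgeber time 6, that is, 6 h after lights on. The flies were white (w) and carried the ry[506] allele, UAS-GFP-Msp300KASH at attP2, which tags the outer nuclear membrane with GFP, and the rh1-GAL4 driver. The knockdown construct, named UAS-siSet2 in the labels, was driven by the same rh1-GAL4, which turns on in outer photoreceptors late in pupal development. The paper reports that an shRNA against luciferase under this driver stayed effective in adults as they aged. The tagged nuclei were immuno-enriched from heads, and 10 ng of RNA went into each library. The group rests on a single shSet2 line, and the labels do not give the number of flies behind each replicate or how they were divided. The p-values therefore measure only the spread between these libraries, which may be technical.

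Glycolysis splits glucose into pyruvate in the cytosol and yields ATP and NADH. Its preparatory phase spends ATP to make triose phosphates, and its payoff phase recovers ATP at the phosphoglycerate kinase and pyruvate kinase steps. In the fly retina, pigment glia are known to take up trehalose and to pass glycolytic products on to photoreceptors, which rely strongly on their mitochondria. Nuclear RNA holds nascent transcripts and spliced ones not yet exported, so the cytoplasmic store of these mRNAs was not measured.

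The libraries held 3657491, 3794547 and 4960498 counts in replicates 1, 2 and 3. Levels are given as CPM, counts per 1000000 counts, on totals scaled by edgeR's TMM method. Genes that reached 10 counts in each of the 3 libraries, 5802 in all, are called expressed. Set2 itself was at 85.8 ± 11.6 CPM (SD, n = 3), with no control level to set beside it. It was at 84.8, 97.9 and 74.8 CPM in replicates 1, 2 and 3. By the edgeR likelihood ratio test described below, these levels differed by more than read counting allows (adjusted p = 0.00739), as did those of 25.3% of expressed genes. The 7 outer photoreceptor markers summed to between 50434.9 and 54268.7 CPM in a library. Markers of other cells were present at lower levels. The 6 glial markers summed to 228 to 272 CPM, from the defining glial gene repo at 3.78 ± 0.65 to nrv2 at 114 ± 5.05 CPM. The fat body markers summed to 588 to 786 CPM, nearly all of it apolpp at 646 ± 119 CPM (SD, n = 3), with Fbp1 at 0 counts. The inner photoreceptor markers summed to 36.5 to 51.2 and the hemocyte markers to 33.6 to 39.8 CPM. Of the markers listed for other neurons, VAChT was at 38.8, VGlut at 38.4 and Gad1 at 20.3 CPM. The others on that list, elav, nSyb and brp, are general neuronal genes that do not tell photoreceptors from other neurons. They were at 732, 1088 and 3268 CPM. Of the 6 muscle markers, 2 were expressed, Act88F and TpnC4 were at 0 counts in every library, and the sum ran from 17.2 to 58.5 CPM, with replicate 1 the highest. Since these are bulk samples, fewer cells of a type and less RNA per cell cannot be told apart.

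All 10 glycolytic genes were expressed, against 41.6% of all genes in the table, but together they took a small part of each library. Their summed share was 0.0359% of the counts in replicate 1 (95% Wilson interval 0.0340% to 0.0379%), 0.0301% in replicate 2 (0.0284% to 0.0319%) and 0.0317% in replicate 3 (0.0302% to 0.0333%). The mean was 0.0326% ± 0.0030 (SD, n = 3), or 326 ± 27.7 CPM for the 10 genes together. The interval of replicate 1 did not overlap those of the other two libraries. These intervals cover counting error only. By mean CPM, 6 of the 10 genes lay above the median expressed gene (18.6 CPM), and the median member was at percentile 54.1 of expressed genes.

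The preparatory phase of the pathway starts with Hex-A (FBgn0001186), the hexokinase that phosphorylates glucose. Hex-A lies on chromosome X at 9585675 to 9589813 of the Release 6 assembly. It had 118, 118 and 112 counts in replicates 1, 2 and 3, which are 32.0, 31.2 and 22.7 CPM. Replicate 3 was the low library. Pgi (FBgn0003074, chromosome 2R, 8910900 to 8914069), which turns glucose 6-phosphate into fructose 6-phosphate, had 100, 84 and 148 counts, or 27.1, 22.2 and 29.99 CPM. Here replicate 2 was lowest and replicate 3 highest.

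Pfk (FBgn0003071) encodes phosphofructokinase, the committed and most regulated step of the pathway. It lies on chromosome 2R at 10109740 to 10117457 and is annotated with 5 transcripts. Its counts were 60, 72 and 102, or 16.3, 19.1 and 20.7 CPM, a mean of 18.7 ± 2.23 CPM (SD, n = 3). This is close to the median of all expressed genes. Its neighbour 14-3-3zeta, 53 bp away, had 1614 to 2368 counts. The part of its reads in the Pfk counts was not tested.

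Ald1 (FBgn0000064), the aldolase that cleaves fructose 1,6-bisphosphate, had the most counts of the 10 genes. It lies on chromosome 3R at 26254069 to 26261591 and has 10 annotated transcripts, more than any other member. Its counts were 380, 320 and 424, or 103, 84.7 and 85.9 CPM, with replicate 1 above the other two. Its mean was 91.2 ± 10.2 CPM (SD, n = 3), at percentile 78.1 of expressed genes. An antisense RNA, asRNA:CR44321, overlaps 614 bp of the Ald1 span, and reads of the pair cannot be told apart without stated strand. Tpi (FBgn0086355, chromosome 3R, 30132981 to 30134599) interconverts the triose phosphates that aldolase makes. It was far lower by counts, at 47, 35 and 56, or 12.7, 9.26 and 11.4 CPM.

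**Figure D1:**
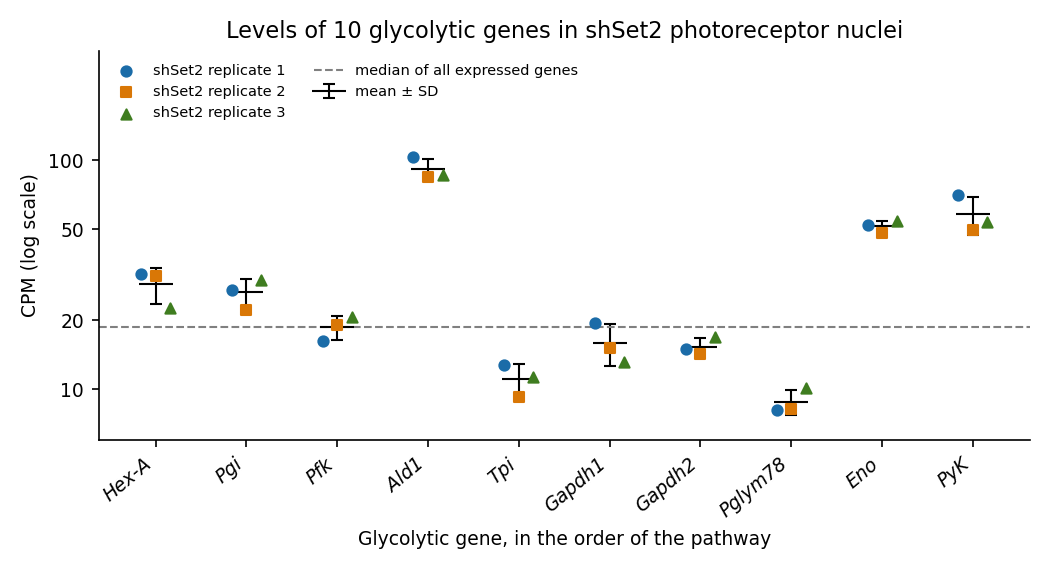
CPM (log axis) of the 10 glycolytic genes in the 3 shSet2 libraries, ordered by their place in the pathway; points are libraries, black bars the mean ± SD, and the dashed line the median of all expressed genes at 18.6 CPM. Ald1, PyK and Eno stand highest at 91.2, 58.0 and 51.4 CPM, and Pglym78 lowest at 8.82 CPM.

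The payoff phase begins with glyceraldehyde-3-phosphate dehydrogenase, for which the fly has a pair of genes that are both members. Gapdh1 (FBgn0001091, chromosome 2R, 7791901 to 7793380) had 72, 57 and 65 counts, or 19.5, 15.1 and 13.2 CPM. Gapdh2 (FBgn0001092, chromosome X, 15868145 to 15869661) had 55, 54 and 83 counts, or 14.9, 14.3 and 16.8 CPM. The pair encodes closely similar proteins, and the counting could split shared reads between them, so the level of each is uncertain.

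Pglym78 (FBgn0014869, chromosome 3R, 29148248 to 29149901) encodes phosphoglycerate mutase and was the lowest member. It had 30, 31 and 50 counts, or 8.13, 8.20 and 10.1 CPM, at percentile 30.1 of expressed genes. The next enzyme, enolase, is encoded by Eno (FBgn0000579, chromosome 2L, 1724768 to 1729636), which is the only enolase gene of the fly. Eno had 192, 182 and 267 counts, or 52.0, 48.2 and 54.1 CPM, and its coefficient of variation of 5.88% was the smallest among the members. Rrp40, which overlaps 905 bp of the Eno span, had 5, 0 and 5 counts.

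PyK (FBgn0267385) encodes pyruvate kinase, which makes pyruvate and ATP in the last step. It lies on chromosome 3R at 22367536 to 22372746. Its counts were 260, 188 and 266, or 70.5, 49.7 and 53.9 CPM, a mean of 58.0 ± 10.95 CPM (SD, n = 3). Replicate 1 stood 1.42-fold above replicate 2, with replicate 3 close to replicate 2. Together, Ald1, PyK and Eno held 63.3%, 60.5% and 60.8% of the counts on the 10 genes in replicates 1, 2 and 3.

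Counts between genes also depend on gene length, so the levels were compared per kb. The length used was the annotated span of the gene with its introns, which for genes with long introns lowers the value. On this scale the members lay closer together. Ald1 was at 12.1 ± 1.36 CPM per kb of span (SD, n = 3), PyK at 11.1 ± 2.10, Gapdh1 at 10.8 ± 2.20, Eno at 10.6 ± 0.62 and Gapdh2 at 10.1 ± 0.87. Below these came Pgi at 8.34 ± 1.24, Hex-A at 6.92 ± 1.24, Tpi at 6.87 ± 1.08 and Pglym78 at 5.33 ± 0.69 CPM per kb. Pfk was lowest at 2.42 ± 0.29 CPM per kb.

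Of the 9 pairs of neighbours in this order, only Pglym78 and Pfk had ranges over the 3 libraries that did not overlap, with Pglym78 at 4.91 to 6.13 and Pfk at 2.11 to 2.68 CPM per kb. Gapdh1 and Gapdh2, which lay among the lowest 5 members by CPM, were level with Eno and PyK per kb. The ratio of Ald1 to Pfk per kb was 6.50, 4.56 and 4.26 in replicates 1, 2 and 3, or 5.11 ± 1.21 (SD, n = 3). An exact sign-flip permutation test over 3 libraries cannot give a two-sided p below 0.25, so by this test no difference between members could pass a threshold of 0.05. The position of Pfk rests in part on its span of 7718 bp, the longest of the 10.

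**Figure D2:**
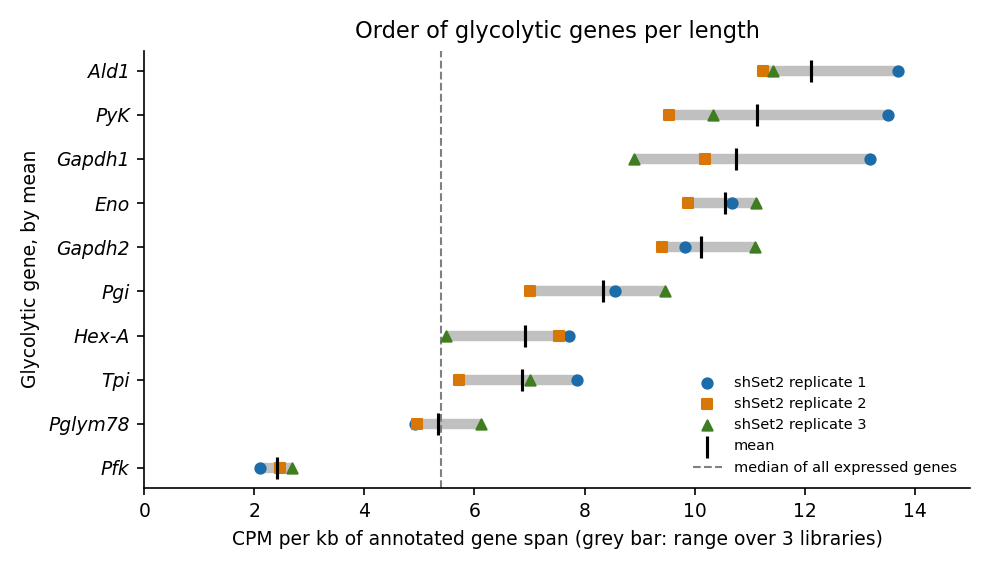
CPM per kb of annotated gene span of the 10 glycolytic genes, ordered by mean; points are the 3 shSet2 libraries, grey bars their range, black ticks the mean, and the dashed line the median of all expressed genes at 5.39. Ald1 is highest at 12.1 and Pfk, at 2.42, is the only member whose range is clear of its neighbour.

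At 6 steps of the pathway, the fly has further genes for the same enzyme, several of them known for expression in the testis. At the hexokinase step, Hex-A held 93.7% of the counts in replicates 1 and 2 (95% Wilson interval 88.0% to 96.7% in each) and 86.2% in replicate 3 (79.2% to 91.1%). The rest of the counts were on Hex-C, the hexokinase known from the fat body, with 8, 8 and 18 counts. Hex-t1 and Hex-t2 had 0 counts in every library. At the aldolase step, Ald1 held all counts, with a lower Wilson bound of 98.8% in replicate 2, the library with the fewest counts on Ald1. Taken instead as a floor of 3 counts, the 0 counts of Ald2 beside 320 of Ald1 in that library allow a share of up to 0.938%.

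The GAPDH step was the only one of the 6 at which the counts were divided about evenly. Gapdh1 held 56.7% of the GAPDH counts in replicate 1 (95% Wilson interval 48.0% to 65.0%), 51.4% in replicate 2 (42.2% to 60.4%) and 43.9% in replicate 3 (36.2% to 52.0%). Gapdh1 was the higher of the pair in replicates 1 and 2 and the lower in replicate 3. Per kb of span, the ratio of Gapdh1 to Gapdh2 was 1.08 ± 0.27 (SD, n = 3), so the difference between them was within the spread between libraries.

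Phosphoglycerate mutase counts were mostly on Pglym78, with 73.2% in replicate 1 (95% Wilson interval 58.1% to 84.3%), 88.6% in replicate 2 (74.0% to 95.5%) and 78.1% in replicate 3 (66.6% to 86.5%). The intervals of the 3 libraries overlapped. Its paralog CG7059 had 11, 3 and 14 counts, and Pglym87 had 1 count in all, in replicate 2.

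At the pyruvate kinase step, PyK held 82.3% of the counts in replicate 1 (77.7% to 86.1%), 89.1% in replicate 2 (84.2% to 92.6%) and 94.3% in replicate 3 (91.0% to 96.5%). The intervals of replicates 1 and 3 did not overlap. The paralog with the most counts was CG7069, which lies 89 bp from PyK and had 36, 19 and 11 counts. It was one of 2 expressed genes among the 13 same-step genes outside the members. Reads that run past the end of PyK and reads of CG7069 itself cannot be told apart in these counts. CG7362 had 12, 4 and 4 counts, CG12229 had 5, 0 and 1, CG11249 had 3, 0 and 0, and CG2964 had none.

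The other expressed same-step gene was Pgk (FBgn0250906, chromosome 2L, 2746880 to 2753068), which encodes phosphoglycerate kinase, the ATP-yielding step between GAPDH and phosphoglycerate mutase. Pgk had 142, 120 and 111 counts, or 38.5, 31.8 and 22.5 CPM, and its paralog CG9961 had 1 count in all. At 4.99 ± 1.30 CPM per kb of span (SD, n = 3), Pgk lay between Pglym78 and Pfk by its mean. In replicates 1, 2 and 3 Pgk was at 6.22, 5.13 and 3.64 and Pglym78 at 4.91, 4.96 and 6.13 CPM per kb. Pgk was thus below Pglym78 in replicate 3 only. Bacc, which overlaps 624 bp of the Pgk span, had 1240 to 1513 counts, so the level of Pgk is uncertain.

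**Figure D3:**
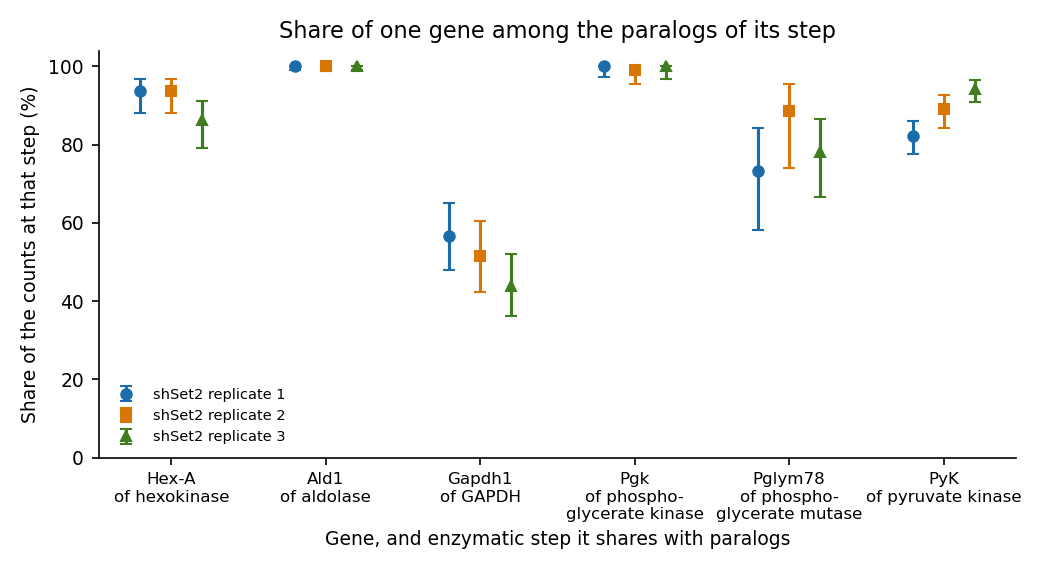
Share (%) of the counts at each enzymatic step that fell on the named gene, among the paralogs of that step; points are the 3 shSet2 libraries and bars 95% Wilson intervals. Gapdh1, at 43.9% to 56.7%, shares its step evenly with Gapdh2, whereas each of the other 5 named genes holds at least 73.2%.

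To ask which members varied between the 3 libraries by more than read counting allows, a Poisson model was fitted to all expressed genes. By edgeR's likelihood ratio test with dispersion 0 and Benjamini-Hochberg adjustment, 1466 of 5802 genes passed the threshold of 0.05, or 25.3%. Of the 10 glycolytic genes, 1 passed, PyK (adjusted p = 0.00318). Ald1 (adjusted p = 0.0512) and Hex-A (adjusted p = 0.0520) were just outside the threshold, and the other 7 had adjusted p-values of 0.179 to 0.758. Passing depends on the number of counts as well as on the spread. Gapdh1 had a coefficient of variation of 20.4% at 64.7 counts in the mean library and did not pass. PyK had 18.9% at 238 counts. Without replicate 1, PyK had an adjusted p of 0.663 and none of the members passed by this edgeR test, beside 14.4% of all tested genes. Pgi and Hex-A then had unadjusted p-values under 0.05. With unscaled totals, PyK, Ald1 and Hex-A all passed, beside 25.1% of all tested genes.

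The spread of the members was like that of other genes in size. The median SD of log2(CPM + 1) between libraries was 0.19 over the 10 genes and 0.18 over all expressed genes. The coefficient of variation ran from 5.88% for Eno to 20.4% for Gapdh1, and was above what counting alone gives in 7 of the 10. The share of all expressed genes above their counting value was not computed. The median likelihood ratio statistic per degree of freedom was 1.80 over the 10 genes and 1.80 over all expressed genes. For Hex-A the coefficient of variation was 18.0%, against 9.29% from counting, and for PyK 18.9%, against 6.56%. For Pglym78, with 37.0 counts in the mean library, it was 12.9%, below the 16.9% from counting. It was also below for Eno (5.88% against 6.94%) and Gapdh2 (8.62% against 12.75%).

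The libraries did not shift all members one way. Replicate 1 was the highest library for Hex-A, Ald1, Tpi, Gapdh1 and PyK, and replicate 3 for Pgi, Pfk, Gapdh2, Pglym78 and Eno. Replicate 2 was highest for none of the 10. Over all expressed genes, replicates 1, 2 and 3 were highest for 35.4%, 30.1% and 34.5%. Replicate 2 was the lowest library for 6 of the 10, and the share of all expressed genes lowest in it was not computed. With 10 genes in 3 libraries, these counts describe the libraries only. The deviation of replicate 1 from the mean was 0.29 on the log2 scale for PyK and Gapdh1, and that of replicate 3 was -0.31 for Hex-A.

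Markers of other cell types were read beside the members, and those of muscle were highest in replicate 1. The summed muscle markers were at 58.5, 17.2 and 24.3 CPM in replicates 1, 2 and 3, deviations of 0.98, -0.73 and -0.25 on the log2 scale. Most of this was Mhc, the myosin heavy chain, with 162, 44 and 76 counts. The summed glial markers were at 272, 234 and 228 CPM, although repo was highest in replicate 2 and nrv2 in replicate 3. The fat body markers did not move together: apolpp was at 776, 618 and 543 CPM, Lsp2 at 10.03, 25.4 and 44.8 CPM, Yp1 had 0, 3 and 0 counts and Fbp1 had none. For PyK and the summed members, replicate 1 was highest and replicate 2 lowest. The sums of the muscle, inner photoreceptor and hemocyte markers had the same order. On the log2 scale, the summed members deviated by 0.13, -0.11 and -0.03 in replicates 1, 2 and 3. The inner photoreceptor sum deviated by 0.20, -0.27 and 0.07, and the hemocyte sum by 0.13, -0.11 and -0.02. Other lists had other orders. The outer photoreceptor sum was lowest in replicate 1 (-0.07, 0.04 and 0.03). The sum for other neurons, most of it elav, nSyb and brp, was highest in replicate 2 (0.03, 0.04 and -0.08). The glial and fat body sums were highest in replicate 1 and lowest in replicate 3. The part of RNA from any of these cell types in the glycolytic values was not tested.

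**Figure D4:**
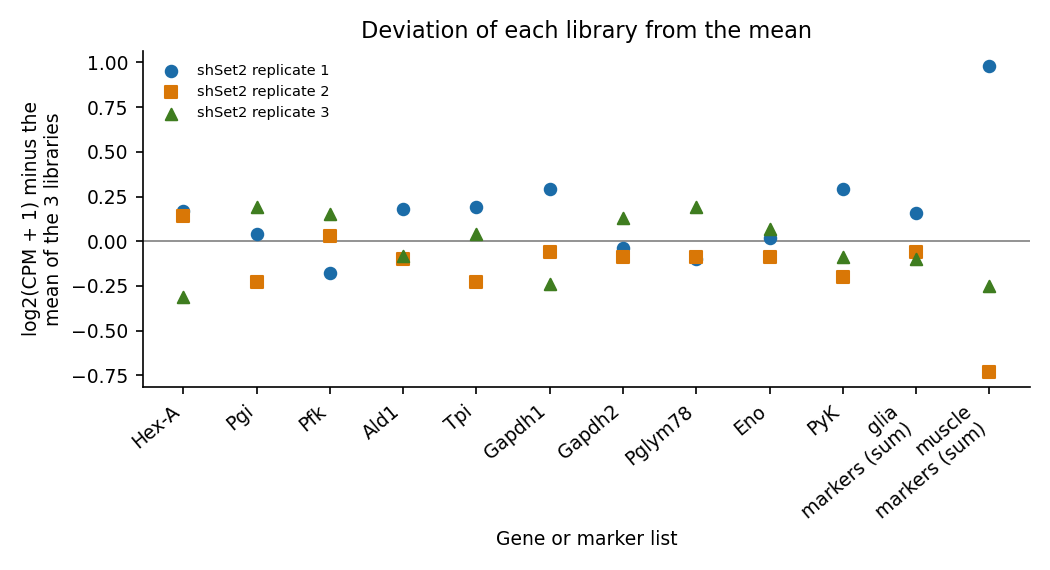
Deviation of log2(CPM + 1) in each shSet2 library from the mean of the 3, for the 10 glycolytic genes and for the summed muscle and glial markers. Members deviate by at most 0.31 in either direction, the muscle markers by 0.98 in replicate 1.

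Genes that regulate or surround the pathway were read beside the members from fixed lists. Pfrx, the bifunctional enzyme that makes and breaks down fructose 2,6-bisphosphate, the activator of phosphofructokinase, was far above the enzymes themselves. It had 1883, 1912 and 2105 counts, or 510, 506 and 427 CPM, at percentile 94.0 of expressed genes. Per kb of span, it was 17.5-, 14.8- and 11.5-fold above Pfk in replicates 1, 2 and 3, or 14.6-fold ± 3.00 (SD, n = 3). Of the 8 regulators, 6 were expressed. sima, the fly HIF-alpha, was at 554 ± 61.9 CPM over a span of 63488 bp. ERR, a nuclear receptor known to drive glycolytic genes in the larva, was at 27.6 ± 1.96 CPM, and Mondo, the sugar-sensing transcription factor, at 111 ± 7.81 CPM. Its partner bigmax had 8, 14 and 13 counts, and sug 11, 19 and 5.

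Sugar reaches the pathway as trehalose, glucose or glycogen. Of the 10 genes of sugar entry and storage, 9 were expressed. Gyg, the glycogenin that primes glycogen, was at 218 ± 37.2 CPM, Treh, which splits trehalose into glucose, at 119 ± 19.3 CPM, and Tps1, which makes trehalose phosphate, at 37.8 ± 6.11 CPM. Per kb of span, Treh was at 7.95 ± 1.29 and Hex-A at 6.92 ± 1.24 CPM per kb, and Treh was the higher in replicates 1 and 3 and the lower in replicate 2. The trehalose transporter gene Tret1-1 was at 12.8 ± 1.33 CPM, and Tret1-2 had at most 1 count in a library.

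The exits of the pathway differed widely from each other. Gpdh1, the glycerol-3-phosphate dehydrogenase that draws on triose phosphate and regenerates NAD, had 496, 489 and 766 counts, or 134, 129 and 155 CPM. It was above Ald1, the highest member, in every library, by 2.18-fold ± 0.36 per kb of span (SD, n = 3). Gpo1, its mitochondrial partner in the glycerophosphate shuttle, was at 64.2 ± 5.20 CPM. Ldh, the lactate dehydrogenase that regenerates NAD by making lactate, had 3, 7 and 3 counts, at the floor of 3 counts in replicates 1 and 3. Of the pyruvate dehydrogenase complex, Pdha was at 29.7 ± 4.31, Pdhb at 27.1 ± 2.95 and muc at 39.9 ± 6.96 CPM, and the inhibitory kinase gene Pdk was at 58.3 ± 7.47 CPM. In all, 8 of the 9 genes of pyruvate and triose exits that had a row in the table were expressed.

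Of the 5 gluconeogenic genes, 3 were expressed. Pepck1 and Pepck2, which encode phosphoenolpyruvate carboxykinase, had 0 counts in every library, and fbp, the fructose bisphosphatase that opposes Pfk, had 19, 10 and 16 counts. PCB, the pyruvate carboxylase that also feeds the citric acid cycle, was at 193 ± 12.6 CPM. Of the 7 pentose phosphate genes, 3 were expressed. The highest was CG8036, a transketolase gene, at 28.8 ± 1.59 CPM, while Zw, which encodes the entry enzyme glucose-6-phosphate dehydrogenase, had 11, 6 and 17 counts.

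Mitochondrial ATP synthesis was read from the nuclear-encoded genes of oxidative phosphorylation, of which 56 of 80 were expressed. The highest were ATPsynC at 120 ± 9.81 CPM, ATPsynbeta at 90.7 ± 9.21 CPM and UQCR-11 at 52.9 ± 4.23 CPM. The median expressed gene of this list was at 9.24, 8.35 and 8.66 CPM per kb of span in replicates 1, 2 and 3, and the median glycolytic member at 9.19, 8.48 and 9.18. The order of these medians changed between libraries. The median of all expressed genes was 5.26, 5.41 and 5.48 CPM per kb. The lists differ in span, with a median of 1210 bp for oxidative phosphorylation, 3655 bp for the members and 3997 bp for all expressed genes, and the part of span in these values was not tested.

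**Figure D5:**
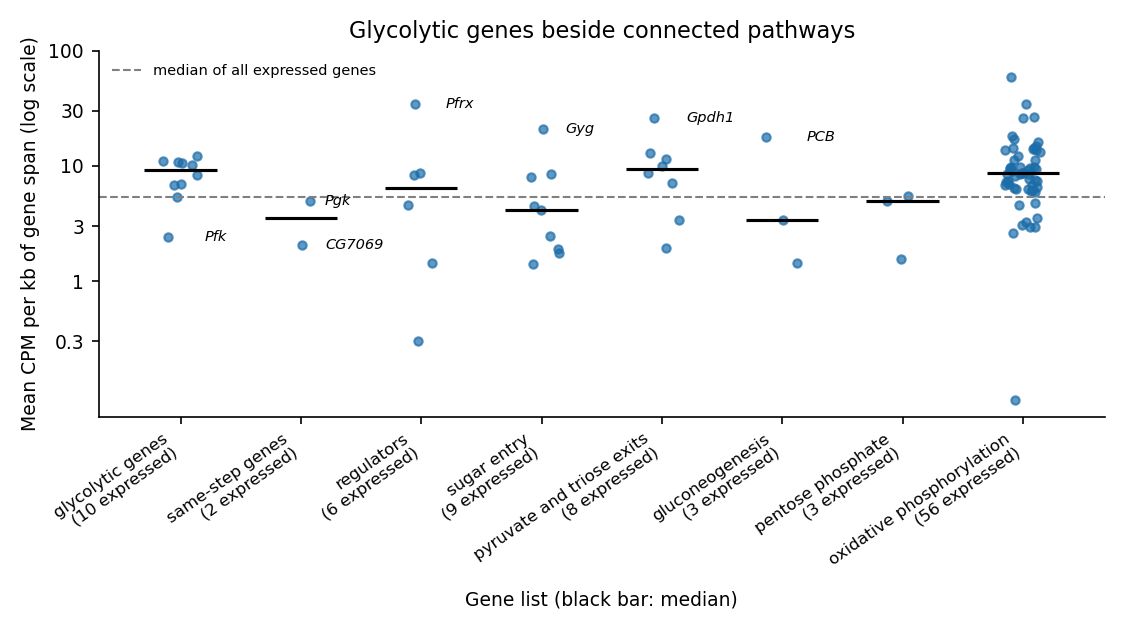
Mean CPM per kb of gene span (log axis) of the expressed genes of each list; points are genes, black bars the median of each list, and the dashed line the median of all expressed genes at 5.39. The glycolytic genes lie around 9.22, level with oxidative phosphorylation at 8.63. Pfrx (34.7) and Gpdh1 (26.2) stand above each member. So do Gyg (21.1), PCB (17.8), Gpo1 (12.8) and genes of oxidative phosphorylation, among them ATPsynC (34.5) and ATPsynbeta (26.4).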

How the data were processed

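Counts of reads per gene were taken as the authors deposited them, as whole numbers for 13947 genes in 3 shSet2 nuclear RNA-seq libraries, without normalization. One blank row was left out, and there were 0 columns of other samples. Per the labels, the submitters' processing notes name Trimmomatic, STAR, Bowtie2, SAMtools, deepTools and DESeq2 and the builds dm6 and BDGP6, without roles. The counting tool and the strand setting are not given in the sources used here. Strand and intron reads could therefore affect genes with overlapping neighbours or long introns.

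Symbols were matched for 13884 identifiers, and spans from the RefSeq gene table (Release 6 plus ISO1 MT) for 13871. The planned coding lengths were not used here, and annotated span took their place. No protein or promoter sequences were used here. The fits used R 4.3.3 with edgeR 4.0.16 and, as an alternative, DESeq2 1.42.0. Other values were computed in Python 3.11.15 (pandas 2.3.3, scipy 1.17.1). Totals were scaled by TMM factors of 1.009, 0.996 and 0.995. A count of 3, the floor, equals 0.813, 0.794 and 0.608 CPM in replicates 1, 2 and 3. The pseudocount was 1 CPM. Library differences were tested over all expressed genes with a Poisson likelihood ratio test in edgeR. The test was tested on simulated Poisson counts. It called 56.2% of genes raised 1.5-fold in library 1 and 69.7% of those lowered to 0.5-fold. Of unchanged genes it called 0.0873%.

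The members and lists were chosen with earlier results of these data known. Named genes are the members, the other genes of each step, and, from the fixed lists, the highest 3 by CPM and genes at or under the floor in all libraries. ERR, bigmax, sug, Tret1-1, Ldh, Pdha, Pdhb, muc, Zw, COX6B, ND-B17.2, the marker genes and the neighbouring genes were named after their values were seen. One listed symbol, Alat, was not matched. The alternatives were other scalings, count minimums of 5 and 50 or none, a pseudocount of 0.1 CPM, and each replicate left out in turn.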

Additional observations from a re-analysis of the deposited data

How the results depend on the processing

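No paired analysis was possible because counts of a single group, shSet2, were analysed. Alternatives on coding or exon lengths were not run, since those lengths were not used here. At a minimum of 50 counts in every library, 8 of the 10 members were expressed, without Tpi and Pglym78. The number of members that varied between libraries was 1, where 25.3% of all tested genes passed. It was 3 with unscaled totals, where 25.1% of all tested genes passed. At a minimum of 50 counts, where fewer genes were tested, it was 3, beside 40.2% of all tested genes. With a replicate left out it was 0 to 1. The share of all tested genes was then 14.4%, 20.3% and 9.32% without replicates 1, 2 and 3. The median SD of log2(CPM + 1) was 0.19, and 0.14 to 0.19 with a replicate left out. The number of neighbours with ranges apart was 1, and 2 to 4 with a replicate left out, as follows from fewer libraries giving narrower ranges. The median percentile of the members was 54.1, and 61.3, 25.7 and 75.7 at a minimum of 5, of 50 and with none, which change the set of genes compared, and 53.4 to 56.8 with a replicate left out. At a minimum of 50 counts, expressed genes fell to 1 same-step gene, 5 of sugar entry, 1 gluconeogenic, 1 pentose phosphate and 21 of oxidative phosphorylation. With no minimum, they were 9 same-step genes and 7 pentose phosphate genes. None of the 100 alternatives moved the mean CPM or CPM per kb of a member by more than 1 SD, which with a library left out is nearly so by construction. Depth limits Pglym78, Tpi and the paralogs most.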

Other observations

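Outside the members, the genes of connected pathways that varied between libraries beyond counting error by the same edgeR test were 10 in number and spread over 5 lists. Of the regulators, sima was at 582, 597 and 483 CPM in replicates 1, 2 and 3 (adjusted p = 4.63e-13), and Pfrx at 510, 506 and 427 CPM (adjusted p = 1.25e-08), both lowest in replicate 3. Gyg was at 183, 213 and 257 CPM (adjusted p = 3.53e-11), and Treh at 140, 102 and 115 CPM (adjusted p = 8.77e-05). Pgk was at 38.5, 31.8 and 22.5 CPM (adjusted p = 0.000726), and CG7069 at 9.75, 5.03 and 2.23 CPM (adjusted p = 0.000131). For both of these genes, replicate 1 was highest and replicate 3 lowest. Gpdh1 was highest in replicate 3, at 155 CPM (adjusted p = 0.0148), and muc was lowest in replicate 1, at 32.0 CPM (adjusted p = 0.0369). Of the 56 expressed genes of oxidative phosphorylation, 2 passed, COX6B (adjusted p = 0.0106) and ND-B17.2 (adjusted p = 0.0465), both highest in replicate 3. With 25.3% of all expressed genes past this threshold, these calls describe the libraries and no condition.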
